A study of Mus musculus with 62 samples.

Results

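The liver transcripts described here are 37 genes of the extracellular matrix and of hepatic stellate cells, chosen by symbol as a fixed list out of 47643 gene symbols in the table. The list holds the fibrillar collagens, collagens of basement membranes, collagens VI and XIV, laminins and nidogen, fibronectin and small proteoglycans, crosslinking enzymes, matrix proteases and their inhibitors, contractile and cytoskeletal genes, stellate cell genes and a pair of profibrotic ligands. Of the 37, 35 reached 1 TPM (transcript abundance scaled for transcript length and library total) in at least 5 of the 62 livers and were tested, and all 62 livers entered 1 fit. The laminin chain Lama4 (mean 0.536 TPM) reached 1 TPM in 3 livers and the crosslinking enzyme Lox (mean 0.11 TPM) in 0, so neither was tested.

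All mice were female and 2 months old. The strain is C57BL/6J in the labels but NCI Ath/nude in the design text, and which is right is not settled by either. The 3 arms were mice given melanoma cells that cause cachexia (CAC), the wasting of body tissue that accompanies some cancers, mice given melanoma cells that do not (NCAC), and mock-injected mice (Con). Livers were collected 2, 4, 6 and 8 weeks after injection, 5 per arm and week and 7 for CAC at 8 weeks. No genetic alteration of the mice is given beyond the strain, and the identity of the melanoma lines is not given in the sources used here. The extraction protocol also speaks of a lung carcinoma line, LLC, which is in none of the groups. The samples are called biological replicates, and p-values measure the spread between them.

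The liver's matrix is sparse in health and lies mainly in the portal tracts, around the central veins and as a thin scaffold in the space between hepatocytes and sinusoidal endothelium. Stellate cells live in that space, store vitamin A when quiescent, and when activated by TGF-beta, PDGF and related signals turn contractile and lay down fibrillar collagen. Fibronectin of the plasma comes from hepatocytes, and endothelial and portal cells also make matrix, so no gene of the list belongs to stellate cells alone. In RNA of whole liver, fewer cells of a type and less RNA per cell cannot be told apart.

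Levels spanned a wide range. On the TPM scale, which allows for transcript length, the mean over all 62 livers was 367 for Fn1 (fibronectin), 251 for Col18a1 (the basement membrane collagen from which endostatin is cut) and 136 for Dcn (decorin). Next came Bgn (biglycan) at 41.0, Sparc (a collagen-binding glycoprotein) at 39.7, Mmp14 (a membrane-bound matrix metalloproteinase) at 18.1, Vim (vimentin) at 11.7 and Lum (lumican) at 11.5 TPM. The major fibrillar collagens were low, with Col3a1 at 6.00, Col1a2 at 1.74 and Col1a1 at 1.58 TPM. The stellate cell gene Lrat, which esterifies retinol for storage, had a mean of 6.04 TPM, Reln (reelin, a secreted glycoprotein) 3.75, Des (desmin) 3.70 and Pdgfrb (the PDGF beta receptor) 2.69 TPM. Timp1, a secreted inhibitor of metalloproteinases, was among the lowest at 0.941 TPM.

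Some livers also carried transcripts of neighbouring tissues, which bears on several genes below. In 9 of 62 livers the pancreatic protease transcript Ctrb1 was at 100 TPM or more, and 12 held either that or at least 10 TPM of the muscle actin Acta1. At 6 weeks these were CAC replicate 1 and Con replicates 4 and 5, and at 8 weeks Con replicates 2 and 4 and NCAC replicates 1 and 5, while none was in CAC at 8 weeks or NCAC at 6 weeks. Of the 35 tested genes, 30 had the highest NCAC value at 8 weeks in replicate 5, 22 the highest Con value at 8 weeks in replicate 2, 28 the highest Con value at 6 weeks in replicate 5, and 25 the highest CAC value at 6 weeks in replicate 1. The others held fewer, with 2 in Con replicate 4 at 6 weeks, and 1 in Con replicate 4 and 4 in NCAC replicate 1 at 8 weeks. Livers with 0 TPM of Ctrb1 and Acta1 could also hold many, as did CAC replicate 5 at 2 weeks with 22 and CAC replicate 2 at 8 weeks with 20. Hepatocyte markers were high throughout, with a sum of 10 markers between 100823 and 153237 TPM in every liver at 6 and 8 weeks. The part of the other tissues in the differences was not tested, but each comparison at 6 and 8 weeks was also made without the 12 livers, an alternative chosen after seeing the data. Below, livers holding other tissues means these 12. The rule looks at Ctrb1 and Acta1 alone, so livers that were kept can still hold other tissue. At 6 weeks fat cell markers summed to 298 TPM in CAC replicate 2, and B and plasma cell markers to 978 TPM in NCAC replicate 4.

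Calls among these genes began at 6 weeks. Differences are on the log2(TPM + 1) scale, which understates changes of genes near 0 TPM. They are given ± SE, and a gene counts as called at a Benjamini-Hochberg adjusted p under 0.05 (limma) over 12160 tested genes. Between CAC and Con, 0 of 35 genes were called at 2 weeks (1 at an unadjusted p under 0.05, 0.00822% of all tested genes called) and 0 at 4 weeks (3 at an unadjusted p under 0.05, 1.91% of all called). At 6 weeks 8 were called higher in CAC and 1 lower, against 5% and 10.3% of all tested genes. At 8 weeks 7 were called higher and 7 lower, against 5.87% and 35.3%.

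The median difference of the 35 genes between CAC and Con was 0.38 at 6 weeks, where that of all tested genes was -0.12. At 8 weeks the same medians were -0.16 and -0.21. After median-of-ratios rescaling, which brings the medians of the libraries together by construction, the median of all genes was -0.0024 at 8 weeks. Then 11 of the 35 genes were called higher and 2 lower, against 12.8% and 13.9% of all tested genes. Quantile normalization gave 13 higher and 2 lower, against 14.7% and 13.4%. Rescaling with the 20 highest genes removed gave 7 higher and 12 lower, against 4.07% and 55.8%, with a median of -0.37 over all genes. At 6 weeks median-of-ratios rescaling and quantile normalization each gave 10 higher and 0 lower, against 8.5% and 5.82% of all tested genes in the former and 9.54% and 6.68% in the latter.

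Calls between CAC and NCAC livers also began at 6 weeks, but the genes called were only partly those called against Con. Col4a1, Dcn, Bgn, Pdgfrb and Col5a2 were called higher against NCAC only. Of the genes lower than Con at 8 weeks, Col5a1 alone was also called lower than NCAC. The comparisons with NCAC use the same CAC livers as those with Con and are not independent of them. At 2 weeks 0 of 35 genes were called (3 at an unadjusted p under 0.05, 0% of all tested genes called) and at 4 weeks 0 (3 at an unadjusted p under 0.05, 1.27% of all). At 6 weeks 12 were called higher in CAC and 0 lower, against 6.55% and 5.54% of all tested genes, with a median difference of 0.64 over the 35 and -0.03 over all. At 8 weeks 11 were called higher and 2 lower, against 5.09% and 43.1%, with medians of -0.02 and -0.26. On the rescaled values 14 were called higher and 0 lower at 8 weeks, by median-of-ratios (12.3% and 13% of all tested genes) and by quantile normalization (14% and 13.2%) alike.

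No gene of the 35 was called between NCAC and Con. The count was 0 at 2, 4, 6 and 8 weeks, and 4, 0, 3 and 2 genes had an unadjusted p under 0.05. The share of all tested genes called in those comparisons was 0% at 2, 4 and 6 weeks and 0.181% at 8 weeks. The largest difference in size at 8 weeks was that of Col5a2 at -1.04 (limma, adjusted p = 0.134).

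**Figure D1:**
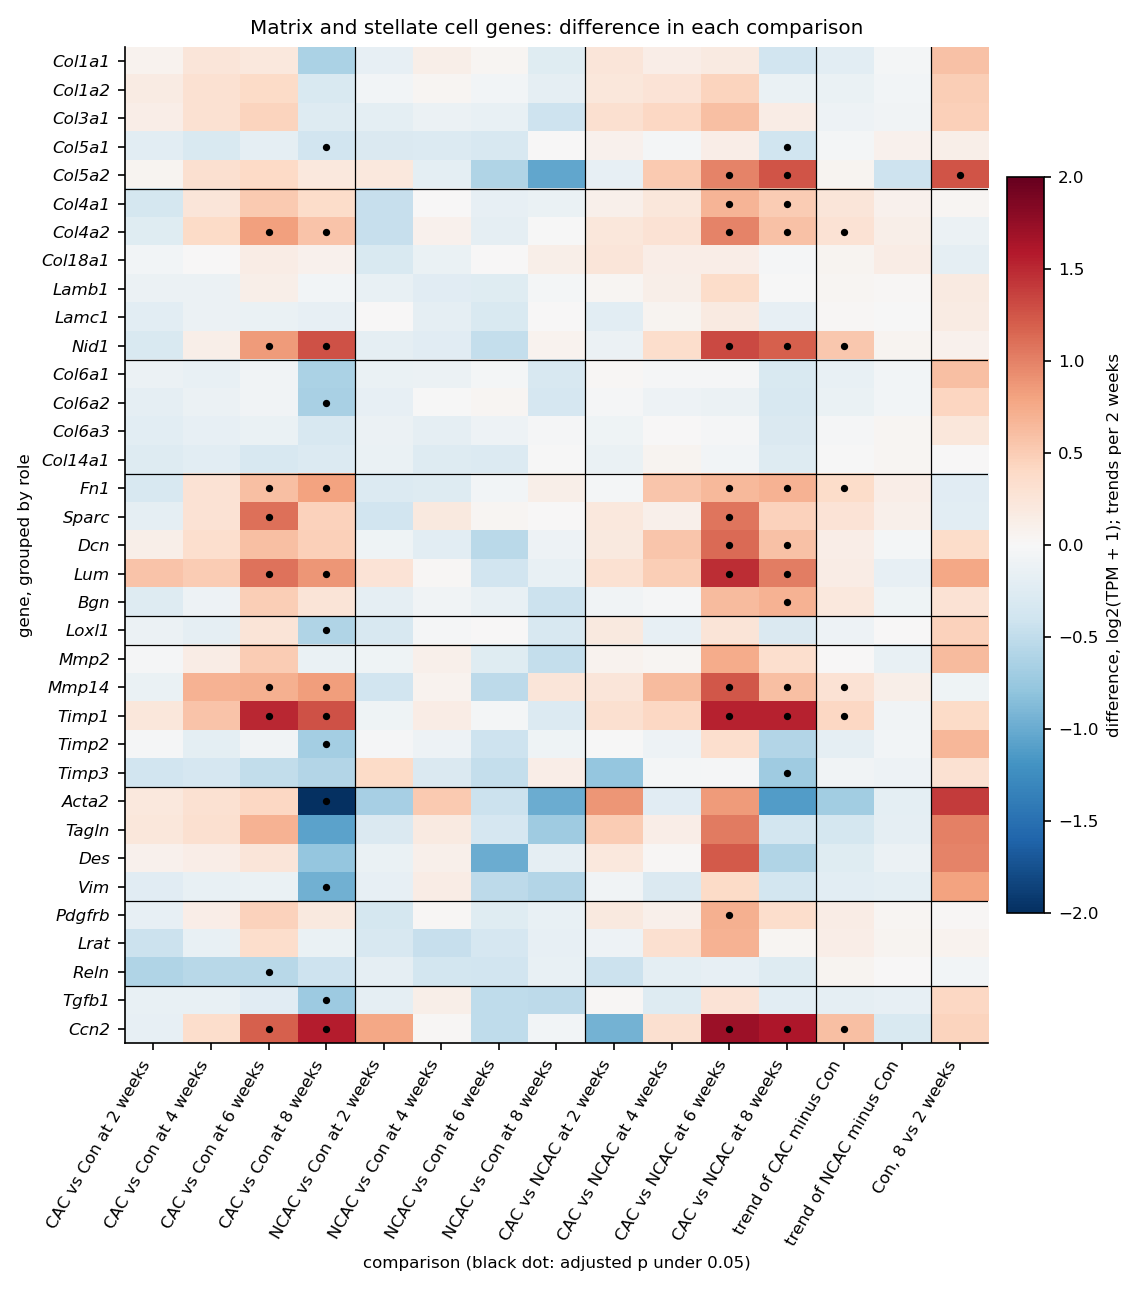
Difference in log2(TPM + 1) of the 35 tested genes (vertical axis, grouped by role) in the 15 comparisons (horizontal axis), red higher and blue lower in the group named before "vs", with black dots at adjusted p under 0.05 (limma) and colours saturating at 2. Dots begin at 6 weeks in the columns with CAC, and the 4 columns of NCAC with Con hold none.

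Of the basement membrane genes, the network collagen IV and its linker nidogen were higher in CAC, while laminin chains and Col18a1 gave no call. Nid1, nidogen 1, bridges the laminin and collagen IV networks. At 6 weeks the 5 CAC livers had 18.1, 8.03, 12, 10.7 and 6.13 TPM, the 5 Con livers 6.43, 3.58, 4.92, 4.29 and 8.12, and the 5 NCAC livers 4.07, 4.15, 3.68, 3.68 and 2.35. All CAC values lay above all NCAC values, while CAC and Con overlapped. At 8 weeks CAC ran from 3.90 through a median of 14.5 to 21.2 TPM, Con had 3.17, 4.94, 4.50, 4.82 and 6.13 and NCAC 5.82, 4.04, 2.78, 3.93 and 10.4. At 8 weeks 5 of the 7 CAC livers lay above every Con and NCAC liver, and those at 3.90 and 8.88 TPM lay within the range of the other arms.

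For Nid1 the difference from Con was 0.85 ± 0.27 at 6 weeks (limma, adjusted p = 0.0227) and 1.27 ± 0.25 at 8 weeks (adjusted p = 5.43e-05), and that from NCAC 1.32 ± 0.27 and 1.19 ± 0.25 (adjusted p = 0.000278 and 0.000107). The call against Con at 6 weeks ended without CAC replicate 1 (0.66, adjusted p = 0.123), Con replicate 2 (0.74, adjusted p = 0.0632) or Con replicate 4 (0.79, adjusted p = 0.0553). Without the livers holding pancreatic or muscle transcripts the difference at 6 weeks was 0.76 (adjusted p = 0.1), while at 8 weeks it was 1.31.

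Col4a1 and Col4a2 encode the chains that assemble into the common collagen IV network. They lie head to head on chromosome 8 (GRCm38), Col4a1 on the minus strand with its start at 11312826 and Col4a2 on the plus strand with its start at 11312805, so that the annotated transcripts share 22 bases. How reads of the shared stretch were assigned is not given in the sources used here. Col4a2 had 13.7, 8.49, 8.32, 9.78 and 8.23 TPM in CAC at 6 weeks, 6.45, 3.37, 4.71, 4.50 and 6.37 in Con and 3.77, 5.21, 4.93, 4.31 and 3.39 in NCAC. Every CAC value at 6 weeks lay above every Con and NCAC value. At 8 weeks CAC ran from 6.86 through 9.44 to 13.5 TPM, while Con had 6.52, 8.44, 6.12, 5.98 and 3.68, so the groups overlapped at the top of Con.

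Col4a2 was 0.82 ± 0.20 above Con at 6 weeks (limma, adjusted p = 0.00325) and 0.57 ± 0.19 at 8 weeks (adjusted p = 0.0111), and 1.00 ± 0.20 and 0.58 ± 0.19 above NCAC (adjusted p = 0.000286 and 0.00884). The calls at 8 weeks ended without Con replicate 5 (0.43, adjusted p = 0.0680) and without NCAC replicate 3 (0.43, adjusted p = 0.0651). Col4a1 had means of 9.73 ± 2.33 TPM (SD, n = 5) in CAC, 6.46 ± 1.49 in Con and 5.65 ± 1.22 in NCAC at 6 weeks. It was called against NCAC, at 0.69 ± 0.21 at 6 weeks and 0.50 ± 0.19 at 8 weeks (adjusted p = 0.0186 and 0.0263), and not against Con, at 0.52 and 0.36 (adjusted p = 0.0722 and 0.122). Leaving out CAC replicate 1 or NCAC replicate 5 ended the call at 6 weeks, with adjusted p up to 0.101, and leaving out CAC replicate 2 or NCAC replicate 2, 3 or 4 ended that at 8 weeks, with adjusted p up to 0.125.

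Col18a1, which hepatocytes make, was at 267 ± 33.9 TPM (SD, n = 7) in CAC and 251 ± 33.0 (SD, n = 5) in Con at 8 weeks, a difference of 0.09 (adjusted p = 0.566). The laminin chains Lamb1 and Lamc1 differed from Con by 0.12 and -0.13 at 6 weeks and by -0.06 and -0.16 at 8 weeks (smallest adjusted p 0.395). The untested Lama4 had means of 0.560 TPM in CAC, 0.745 in Con and 0.353 in NCAC at 6 weeks.

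Fibronectin and 2 of the 4 smaller matrix proteins beside it, Sparc and Lum, were called higher in CAC than Con at 6 or 8 weeks, and all 4 were called higher than in NCAC. Fn1, fibronectin, is an adhesive glycoprotein of plasma and tissue. At 6 weeks CAC had 538, 451, 535, 514 and 437 TPM, Con 382, 267, 312, 335 and 334 and NCAC 307, 337, 290, 294 and 340, with every CAC liver above both other arms. At 8 weeks CAC ran from 379 through 602 to 684 TPM, Con had 366, 203, 403, 276 and 372, and NCAC lay between 323 and 362, so that the 7 CAC livers cleared all of NCAC and overlapped 1 Con liver. The difference from Con was 0.61 ± 0.16 at 6 and 0.81 ± 0.15 at 8 weeks (limma, adjusted p = 0.00832 and 3.34e-05), and that from NCAC 0.66 ± 0.16 and 0.70 ± 0.15 (adjusted p = 0.00399 and 0.000216). These calls held when any 1 liver was left out and without the livers holding other tissues (0.61 and 0.54 against Con).

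Sparc, a glycoprotein that binds collagen, had 98.3, 60.8, 59.0, 54.5 and 52.9 TPM in CAC at 6 weeks, 27.8, 23.7, 24.2, 30.2 and 42.7 in Con and 34.5, 33.9, 31.2, 26.8 and 23.7 in NCAC. The CAC livers lay above all others at 6 weeks, by 1.10 ± 0.29 against Con and 1.07 ± 0.29 against NCAC (limma, adjusted p = 0.00596 and 0.00749). By 8 weeks Sparc in CAC ran from 26.3 through 44.2 to 90.9 TPM and overlapped Con at 23.4 to 58.0, and the difference of 0.47 was not called (adjusted p = 0.153). Without the livers holding other tissues the difference at 8 weeks was 0.84 (adjusted p = 0.00906).

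Lum, Dcn and Bgn are small leucine-rich proteoglycans that bind collagen fibrils. Lum had 32.1, 23.1, 25.7, 21.3 and 17.8 TPM in CAC at 6 weeks, 9.44, 6.18, 10.9, 10.2 and 19.0 in Con and 9.48, 7.61, 6.54, 9.74 and 6.36 in NCAC. Only the Con liver at 19.0 TPM, replicate 5, reached into the CAC range. By 8 weeks Lum in CAC ran from 7.54 through 19.1 to 39.4 TPM, Con from 4.07 to 17.2 and NCAC from 4.39 to 27.5, with broad overlap.

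Lum was 1.09 ± 0.35 above Con at 6 and 0.88 ± 0.32 at 8 weeks (limma, adjusted p = 0.0259 and 0.0251) and 1.47 ± 0.35 and 1.03 ± 0.32 above NCAC (adjusted p = 0.0021 and 0.00755). Against Con the call ended at 6 weeks without CAC replicate 1 or Con replicate 2, with adjusted p up to 0.0886, and at 8 weeks without CAC replicate 2, 5 or 7 or Con replicate 1 or 3, with adjusted p up to 0.144. Without the livers holding other tissues Lum was called against Con at both weeks, at 1.24 and 1.18. Without the 9 pancreatic livers alone it was not called at 6 weeks (0.98, adjusted p = 0.0887).

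Dcn had 335, 256, 229, 189 and 181 TPM in CAC at 6 weeks, 150, 124, 165, 147 and 182 in Con and 118, 138, 75.9, 135 and 75.2 in NCAC. CAC cleared NCAC fully and Con but for 1 liver. The difference from NCAC was 1.14 ± 0.27 at 6 weeks (limma, adjusted p = 0.00217) and 0.58 ± 0.25 at 8 weeks (adjusted p = 0.049), and that from Con was 0.60 and 0.47 and not called (adjusted p = 0.11 and 0.121). The call at 8 weeks ended in 7 of the 12 fits that left out 1 liver, CAC replicate 2, 5 or 7 or NCAC replicate 1, 2, 3 or 4, with adjusted p up to 0.185. It also ended with the replicate number as a block (0.54, adjusted p = 0.096), although the numbers were not taken to pair the livers. Bgn was called in 1 comparison, at 0.69 ± 0.21 above NCAC at 8 weeks (adjusted p = 0.00544), with 56.7 ± 18.0 TPM (SD, n = 7) in CAC against 34.3 ± 10.7 (SD, n = 5) in NCAC and 46.4 ± 12.8 in Con.

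Among the proteases and inhibitors, Timp1 and Mmp14 were called higher in CAC, and Timp2, Timp3 and Mmp2 were not. Timp1 inhibits most matrix metalloproteinases. At 6 weeks CAC had 6.35, 2.13, 3.02, 3.63 and 1.25 TPM, Con 0.473, 0.373, 0.222, 0.238 and 0.714 and NCAC 0.374, 0.456, 0.106, 0.390 and 0.470. By 8 weeks Timp1 in CAC ran from 1.32 through 2.63 to 4.57 TPM, Con had 0.177, 1.22, 0.384, 0.677 and 0.465 and NCAC 0.909, 0.0596, 0.119, 0.177 and 0.307. Every CAC liver at 6 and 8 weeks was above every Con and NCAC liver of its week.

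Timp1 was 1.5 ± 0.23 above Con at 6 weeks and 1.27 ± 0.21 at 8 weeks (limma, adjusted p = 2.14e-06 and 4.34e-06), and 1.55 ± 0.23 and 1.54 ± 0.21 above NCAC (adjusted p = 1.17e-06 and 9.6e-08). These calls held in each fit that left out 1 liver, and without the livers holding other tissues the differences from Con were 1.32 and 1.49. At 4 weeks Timp1 was at 0.415 to 2.93 TPM in CAC and 0.120 to 0.541 in Con, a difference of 0.57 that was not called (adjusted p = 0.235). At 2 weeks 1 NCAC and 1 Con liver were listed at 0.

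Mmp14 is a metalloproteinase of the cell surface that cleaves collagen and activates the secreted gelatinase Mmp2. At 6 weeks CAC had 29.8, 26.5, 35.9, 25.3 and 25.4 TPM, Con 23.1, 10.6, 16.9, 22.4 and 14.5 and NCAC 10.8, 11.4, 9.23, 15.3 and 11.1. By 8 weeks Mmp14 in CAC ran from 14.9 through 31.0 to 37.1 TPM, Con had 13.6, 16.1, 12, 18.8 and 15.1 and NCAC 18.5, 18.7, 28.1, 10.7 and 17.2. CAC cleared both other arms at 6 weeks. At 8 weeks the CAC liver at 14.9 TPM lay within the Con range, and the CAC livers at 14.9 and 23.5 TPM lay within the NCAC range.

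Mmp14 was 0.72 ± 0.21 above Con at 6 and 0.84 ± 0.19 at 8 weeks (limma, adjusted p = 0.0147 and 0.000457), and 1.24 ± 0.21 and 0.60 ± 0.19 above NCAC (adjusted p = 1.54e-05 and 0.0088). The 6-week call against Con ended without Con replicate 2 (0.56, adjusted p = 0.0638) and without the livers holding other tissues (0.76, adjusted p = 0.0555). The 8-week call against NCAC ended without NCAC replicate 4 (0.43, adjusted p = 0.0634) and in the fit on the compared groups only (adjusted p = 0.0524). At 4 weeks Mmp14 was 0.70 above Con, short of the threshold (adjusted p = 0.063). Mmp2 itself differed from Con by 0.51 at 6 and -0.14 at 8 weeks and was not called (adjusted p = 0.24 and 0.729).

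Timp2 and Timp3, the other inhibitors, were called in the lower direction or not at all. Timp2 had 3.05 to 10.4 TPM in CAC at 8 weeks, median 5.54, against 4.92, 13.8, 8.56, 12.3 and 13.1 in Con, and was lower by the test at -0.68 ± 0.25 (limma, adjusted p = 0.0269). The call ended in each of 5 fits that left out CAC replicate 4 or 6 or Con replicate 2, 4 or 5 (adjusted p up to 0.0822), after median-of-ratios rescaling (-0.46, adjusted p = 0.162) and without the livers holding other tissues (-0.44, adjusted p = 0.147). Timp3 was lower than NCAC at 8 weeks at -0.71 ± 0.25 (adjusted p = 0.0166), a call that ended without CAC replicate 4 or NCAC replicate 1 or 5, with adjusted p up to 0.105, and without the livers holding other tissues (-0.32, adjusted p = 0.359).

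Loxl1, a lysyl oxidase relative that crosslinks elastin and collagen, was at 0.275 to 1.11 TPM in CAC at 8 weeks and 0.598, 5.28, 0.992, 1.74 and 0.851 in Con. The value of 5.28 TPM came from Con replicate 2, the liver with 1906 TPM of Ctrb1. The difference of -0.61 ± 0.22 (limma, adjusted p = 0.0232) was -0.28 without that liver (adjusted p = 0.258), and the call also ended without Con replicate 4 (adjusted p = 0.0528) or CAC replicate 6 (adjusted p = 0.054) and with the replicate number as a block (adjusted p = 0.0514). The untested Lox had 0.219 ± 0.0952 TPM (SD, n = 5) in CAC at 6 weeks, 0.0709 ± 0.0533 in Con and 0.0765 ± 0.0451 in NCAC.

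Timp1, Nid1 and Mmp14 are shown with the sequence upstream of their start sites as examples of genes called higher in CAC. Other genes called higher, such as Col4a2, which also had a promoter entry, are not shown. The sequences are RefSeq promoter entries of build GRCm38.p6, plus strand, 5′ to 3′, up to 250 bases that end before the first annotated start. Capitals mark 2 motifs searched on both strands, the GC box GGGCGG and the TEAD motif GGAATG. Timp1 is at chrX:20869916-20870165, Nid1 at chr13:13437352-13437550 and Mmp14 at chr14:54431348-54431597.
Timp1: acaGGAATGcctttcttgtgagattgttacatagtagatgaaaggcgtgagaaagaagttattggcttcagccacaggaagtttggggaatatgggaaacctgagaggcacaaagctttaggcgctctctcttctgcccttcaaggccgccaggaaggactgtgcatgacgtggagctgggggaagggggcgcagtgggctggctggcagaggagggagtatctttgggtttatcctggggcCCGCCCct
Nid1: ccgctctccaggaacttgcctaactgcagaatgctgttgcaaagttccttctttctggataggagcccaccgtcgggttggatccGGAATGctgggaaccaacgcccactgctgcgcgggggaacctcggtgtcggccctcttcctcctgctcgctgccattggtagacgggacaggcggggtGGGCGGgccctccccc
Mmp14: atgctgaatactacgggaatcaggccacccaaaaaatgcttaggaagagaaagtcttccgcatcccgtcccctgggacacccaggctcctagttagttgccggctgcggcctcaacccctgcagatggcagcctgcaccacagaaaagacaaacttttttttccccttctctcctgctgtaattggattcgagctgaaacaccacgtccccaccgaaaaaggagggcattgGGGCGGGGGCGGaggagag
The Timp1 stretch holds a TEAD motif that begins 247 bases before the RefSeq start and a GC box 8 bases before it. The Nid1 stretch holds a TEAD motif 165 and a GC box 67 bases before it, and the Mmp14 stretch a pair of GC boxes at 19 and 13 bases. Of the 37 genes, 23 had a promoter entry. The GC box was in 16 of the 23 and in 32.7% of 32851 promoters of the same 250 bases, the TEAD motif in 7 and 12.6%, the AP-1 motif TGANTCA in 1 and 6.75%, and the CArG box in 0 and 1.47%. A gene was counted if any of its promoter entries held the motif, while the percentages are over single entries. The counts and percentages are therefore not on the same basis. The pair of GC boxes in Mmp14 abuts and shares no base. These matches describe letters and not bound sites.

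**Figure D2:**
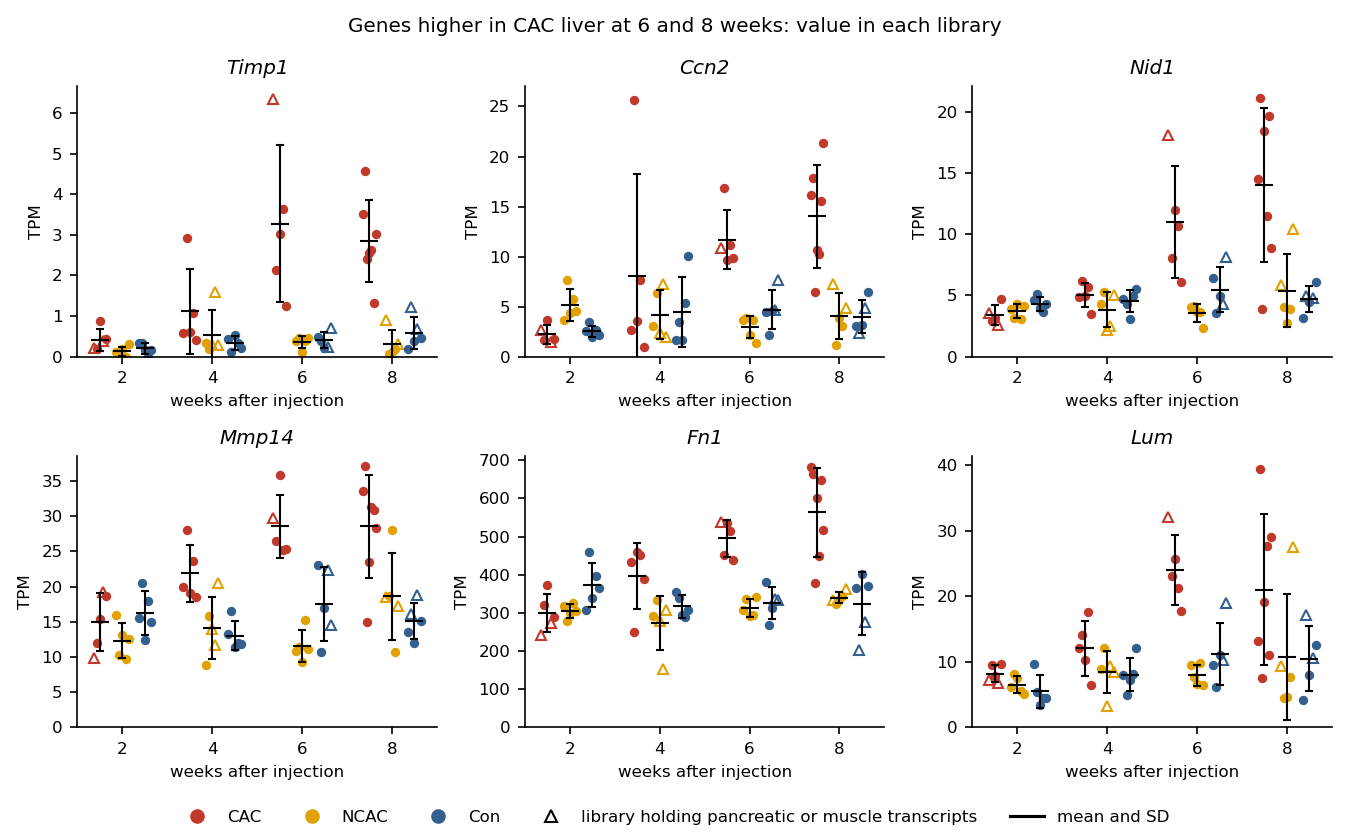
TPM (vertical axis, from 0) of Timp1, Ccn2, Nid1, Mmp14, Fn1 and Lum in each liver at 2, 4, 6 and 8 weeks after injection (horizontal axis), CAC red, NCAC yellow, Con blue, open triangles for livers holding pancreatic or muscle transcripts, black bars for mean and SD, cut at 0. Timp1 in CAC sits between 1.25 and 6.35 TPM at 6 weeks, above every Con and NCAC liver of that week.

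The profibrotic ligands moved in opposite directions at 8 weeks. Ccn2 (listed in the table under its older symbol Ctgf) encodes a matricellular protein induced by TGF-beta and by the YAP and TAZ cofactors of TEAD. At 6 weeks CAC had 10.9, 16.8, 9.62, 11.2 and 9.90 TPM, Con 4.44, 2.12, 4.55, 4.67 and 7.64 and NCAC 3.64, 3.82, 2.17, 3.67 and 1.40. At 8 weeks CAC ran from 6.44 through 15.6 to 21.4 TPM, Con had 3.08, 2.36, 3.13, 4.88 and 6.46 and NCAC 7.26, 1.15, 3.89, 3.07 and 4.88. CAC lay above both other arms at 6 weeks, and at 8 weeks the lowest CAC liver lay just below the highest Con liver and below the NCAC liver at 7.26 TPM.

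Ccn2 was 1.2 ± 0.40 above Con at 6 and 1.57 ± 0.37 at 8 weeks (limma, adjusted p = 0.0339 and 0.000698), and 1.71 ± 0.40 and 1.62 ± 0.37 above NCAC (adjusted p = 0.00209 and 0.000418). Despite the lack of overlap the 6-week call against Con was near its threshold. It ended without CAC replicate 1, 2 or 4 or Con replicate 1, 2, 3 or 4, with adjusted p up to 0.0918, at a pseudocount of 0.1 (adjusted p = 0.0503) and without the livers holding other tissues (1.47, adjusted p = 0.0619). At 4 weeks CAC ranged from 0.939 to 25.7 TPM.

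Tgfb1, the main ligand that drives stellate cell activation, was at 2.23 to 6.77 TPM in CAC at 8 weeks, median 3.30, against 4.43, 8.53, 4.87, 7.34 and 8.71 in Con and 4.84, 3.73, 3.37, 4.51 and 5.13 in NCAC. It was lower than Con by the test, at -0.72 ± 0.17 (limma, adjusted p = 0.00057), and at -0.56 without the livers holding other tissues (adjusted p = 0.0229). The difference from NCAC was -0.20 (adjusted p = 0.316), and NCAC was itself 0.52 below Con without reaching the threshold (adjusted p = 0.26). Kupffer cell markers, from cells that also make Tgfb1, had summed levels of 202 to 752 TPM in CAC and 561 to 763 in Con at 8 weeks. Of these markers 6 of 11 were lower by the test, beside 35.3% of all tested genes, and none was at 0 in every liver of a group. Their part in the Tgfb1 difference was not tested.

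The fibrillar collagens I and III, the bulk of scar matrix, gave no call between CAC and either other arm at any week. Col1a1 was at 1.56 ± 0.520 TPM (SD, n = 5) in CAC and 1.34 ± 1.09 in Con at 6 weeks, a difference of 0.21 with a 95% interval of -0.49 to 0.92 (limma, adjusted p = 0.709). At 8 weeks CAC ran from 0.319 through 1.29 to 2.04 TPM, Con had 0.624, 8.21, 1.30, 3.23 and 2.05 and NCAC 3.66, 0.533, 0.218, 0.724 and 11.6. The highest values, 8.21 and 11.6 TPM, were in Con replicate 2 and NCAC replicate 5. The difference from Con was -0.64 with an interval of -1.29 to 0.02 (adjusted p = 0.112), and Col1a2 and Col3a1 were at -0.31 and -0.26 (adjusted p = 0.347 and 0.55).

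Without the livers holding other tissues Col1a1, Col1a2 and Col3a1 were above NCAC at 8 weeks, by 0.56, 0.62 and 1.03 (limma, adjusted p = 0.0239, 0.00379 and 0.00359, 7 CAC and 3 NCAC livers). Col1a2 was then 0.61 above Con at 6 weeks (adjusted p = 0.0318, 4 CAC and 3 Con livers). In CAC at 8 weeks Col1a1 lay between 0.319 and 2.04, Col1a2 between 0.951 and 2.64 and Col3a1 between 2.68 and 10.3 TPM.

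The collagen V chains, which sit inside collagen I fibrils, differed from each other. Col5a2 was at 0.921 to 5.04 TPM in CAC at 8 weeks, median 3.95, against 0.757, 0.331, 0.867, 0.463 and 2.31 in NCAC and 0.881, 3.03, 1.91, 4.04 and 5.94 in Con. The lowest values were those of NCAC. Col5a2 was 0.99 ± 0.31 above NCAC at 6 and 1.25 ± 0.28 at 8 weeks (limma, adjusted p = 0.0231 and 0.000362) and 0.39 and 0.22 above Con (adjusted p = 0.378 and 0.566). The 6-week call ended without CAC replicate 1 or 3 or NCAC replicate 2 or 4, with adjusted p up to 0.0737.

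Col5a2 was also the only one of the 35 genes called between Con at 8 and at 2 weeks, where 9 had an unadjusted p under 0.05 and 0.296% of all tested genes were called. At 2 weeks Con had 0.671, 0.438, 0.454, 0.501 and 0.879 TPM, and the difference was 1.26 ± 0.31 (limma, adjusted p = 0.0483). This call ended in 8 of 10 fits that left out 1 liver, any Con liver of 2 weeks or replicate 2, 4 or 5 of 8 weeks, with adjusted p up to 0.266. Col5a1 was lower in CAC at 8 weeks by 0.39 against either arm (-0.39 ± 0.16 each, adjusted p = 0.0434 and 0.0358). Those calls ended in 7 and 5 of the 12 fits without 1 liver, with adjusted p up to 0.119 and 0.297, after both rescalings, and with the replicate number as a block (adjusted p = 0.0832 and 0.0684).

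Collagens VI and XIV gave 1 call. Col6a2, a chain of the beaded filaments around cells, had 0.448 to 1.31 TPM in CAC at 8 weeks and 0.813, 5.05, 1.07, 2.01 and 1.73 in Con, where 5.05 TPM was again Con replicate 2. The difference of -0.65 ± 0.23 (limma, adjusted p = 0.0222) was -0.38 without that liver (adjusted p = 0.176) and -0.26 without the livers holding other tissues (adjusted p = 0.183). Col6a1 was at -0.63 and Col6a3 at -0.32 (adjusted p = 0.0587 and 0.119), and Col14a1, a fibril-associated collagen, at -0.27 (adjusted p = 0.339).

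Of the 4 contractile and cytoskeletal genes, Acta2 and Vim were lower in CAC than Con at 8 weeks, and the highest values of the other arms came from a few livers. Acta2 encodes smooth muscle actin, the usual mark of an activated stellate cell and also of vessel walls. CAC ran from 0.573 through 2.01 to 3.83 TPM, while Con had 2.48, 56.0, 5.96, 30.9 and 5.57 and NCAC 9, 0.565, 1.22, 2.90 and 67.0. The Con values of 56.0 and 30.9 TPM were the replicates with 1906 and 282 TPM of Ctrb1, and the NCAC value of 67.0 TPM the replicate with 410 TPM of Acta1. Of the 7 CAC livers 6 lay below the lowest Con liver, and all lay within the range of NCAC.

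Acta2 was -2.11 ± 0.60 against Con at 8 weeks (limma, adjusted p = 0.00392) and -1.12 against NCAC (adjusted p = 0.114). Without the 9 pancreatic livers the difference from Con was -0.92 (adjusted p = 0.24), and without the pancreatic or muscle livers -0.92 (adjusted p = 0.0426, 7 CAC and 3 Con livers), while that from NCAC was 0.26 (adjusted p = 0.604). Tagln (transgelin, an actin-binding protein of smooth muscle) was at -1.08 and Des at -0.77 against Con (adjusted p = 0.0502 and 0.232).

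Vim, an intermediate filament of mesenchymal and blood cells, was at 4.39 to 14.7 TPM in CAC at 8 weeks and 8.44, 41.8, 11.6, 31.7 and 16.1 in Con, the high values again in replicates 2 and 4. Its difference of -0.96 ± 0.32 (limma, adjusted p = 0.0139) was no longer called without Con replicate 2 (-0.67, adjusted p = 0.0911), without Con replicate 4 (-0.77, adjusted p = 0.069) or after median-of-ratios rescaling (-0.73, adjusted p = 0.077). The summed level of 11 smooth muscle markers was 72.5 to 99.3 TPM in CAC and 115 to 228 in Con at 8 weeks. Of these markers 6 of 9 tested were lower by the test, beside 35.3% of all tested genes, and none was at 0 in every liver of a group. Their part in the contractile differences was not tested.

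At 6 weeks 0 of the 4 contractile and cytoskeletal genes were called against Con or NCAC. Acta2 was 0.41 and Tagln 0.70 above Con (limma, adjusted p = 0.693 and 0.314), where Con replicate 5 held 23.2 TPM of Acta2 and the other 4 Con livers 1.22 to 2.15. Without the livers holding other tissues Tagln was 1.05 and Des 0.91 above Con (adjusted p = 0.0309 and 0.00854) and 0.91 and 0.84 above NCAC.

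**Figure D3:**
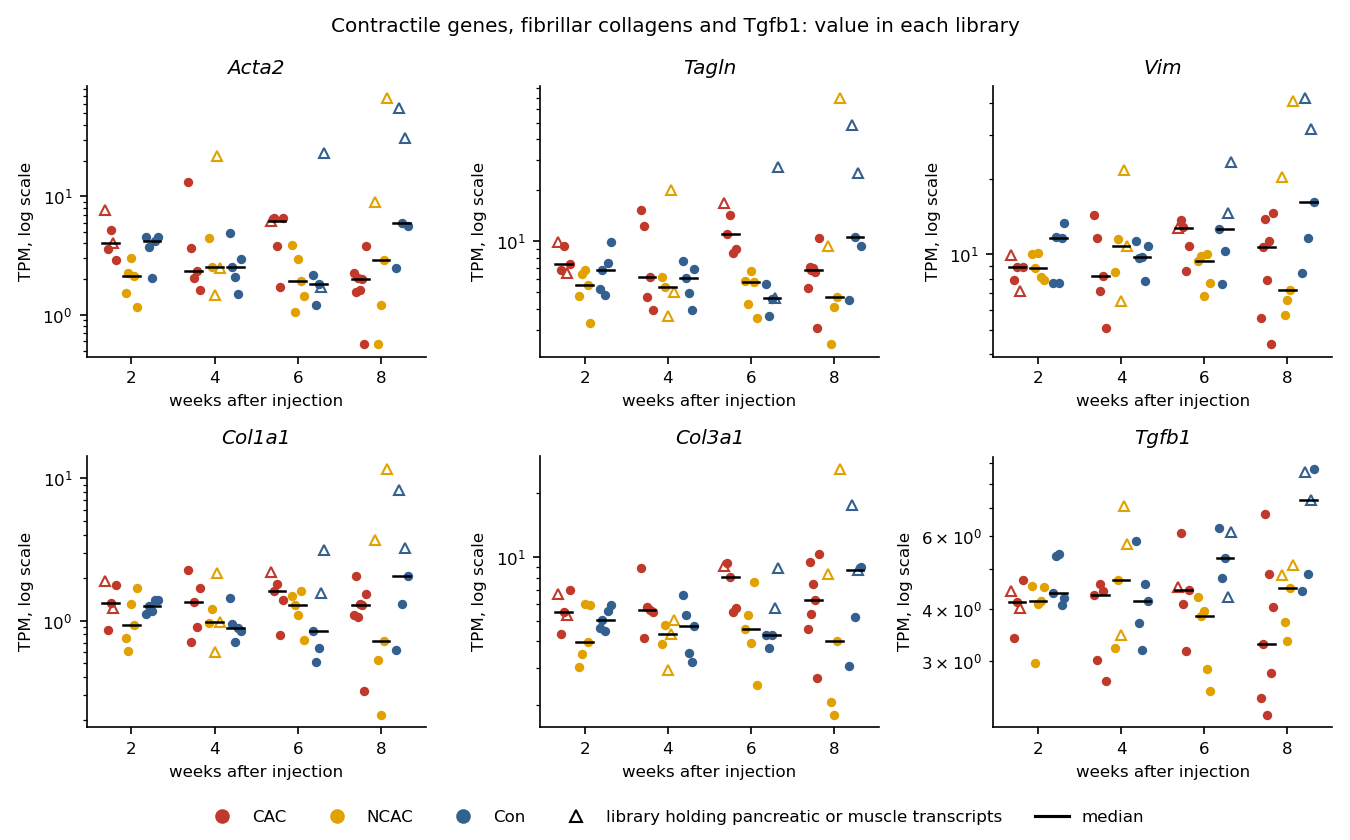
TPM (vertical axis, log scale) of Acta2, Tagln, Vim, Col1a1, Col3a1 and Tgfb1 in each liver at 2, 4, 6 and 8 weeks (horizontal axis), CAC red, NCAC yellow, Con blue, open triangles for livers holding pancreatic or muscle transcripts, black bars for medians. At 8 weeks the Con and NCAC livers with the most Acta2, at 56.0 and 67.0 TPM, are open triangles, and the CAC livers lie between 0.573 and 3.83 TPM.

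Of the 3 stellate cell genes, Pdgfrb and Reln each gave 1 call and Lrat none. Pdgfrb, the receptor through which PDGF drives stellate cell growth, had 6.10, 3.62, 4.99, 3.10 and 2.78 TPM in CAC at 6 weeks against 2.33, 2.18, 1.82, 2.45 and 1.58 in NCAC and 2.76, 2.09, 2.37, 3.00 and 2.99 in Con. CAC cleared NCAC, with 0.70 ± 0.17 (limma, adjusted p = 0.00334), and overlapped Con, with 0.46 (adjusted p = 0.0621). At 8 weeks it was 0.20 and 0.35 above Con and NCAC (adjusted p = 0.316 and 0.0684).

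Lrat, the retinol esterifying enzyme of quiescent cells, was 0.35 above Con and 0.69 above NCAC at 6 weeks and -0.13 and 0.03 at 8 weeks (limma, adjusted p = 0.317, 0.0532, 0.688 and 0.917). Reln was the 1 gene lower in CAC at 6 weeks. It had 4.04, 3.47, 3.90, 2.39 and 2.82 TPM in CAC and 4.61, 4.14, 6.32, 5.01 and 6.69 in Con, without overlap, a difference of -0.55 ± 0.19 (adjusted p = 0.033). The call ended without CAC replicate 4 or 5 or Con replicate 3 or 5, with adjusted p up to 0.101, and after median-of-ratios rescaling (-0.45, adjusted p = 0.0853). At 2, 4 and 8 weeks Reln was at -0.61, -0.55 and -0.41 and not called (adjusted p = 0.229, 0.126 and 0.0501).

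The difference between CAC and Con had an upward linear trend over the weeks for 6 genes. The linear trend over the 4 weeks, given per 2 weeks, called 6 genes higher and 0 lower, against 3.35% and 12.3% of all tested genes. The slope was 0.61 ± 0.17 for Ccn2 (limma, adjusted p = 0.0124), 0.54 ± 0.12 for Nid1 (adjusted p = 0.000753), 0.41 ± 0.10 for Timp1 (adjusted p = 0.00296) and 0.37 ± 0.07 for Fn1 (adjusted p = 0.000268). It was 0.29 ± 0.09 both for Mmp14 and for Col4a2 (adjusted p = 0.0193 and 0.0171). The trend uses the same livers as the weekly comparisons. A slope does not mean a rise at every step. From 6 to 8 weeks the difference from Con fell for Col4a2 (0.82 to 0.57) and Timp1 (1.5 to 1.27). It rose for Ccn2, Nid1, Fn1 and Mmp14. At 2 weeks Fn1 was at 243 to 372 TPM in CAC and 306 to 459 in Con. Nid1 was then at 2.56 to 4.67 TPM in CAC and 3.68 to 5.13 in Con, and Timp1 at 0.180 to 0.865 and 0 to 0.345. The trend of NCAC minus Con called 0 of 35 genes (3 at an unadjusted p under 0.05, 0% of all tested genes called). Leaving out CAC replicate 1 of 2 weeks took the Mmp14 trend to an adjusted p of 0.0532, and without the livers holding other tissues Ccn2 and Mmp14 were at 0.0691 and 0.0511. Without the 9 pancreatic livers alone Ccn2 and Col4a2 were at 0.0839 and 0.0524. The Mmp14 trend was also not called with the replicate number as a block (adjusted p = 0.0509), nor the Timp1 trend at a pseudocount of 0.1 (0.56, adjusted p = 0.0634).

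Leaving out the livers with pancreatic or muscle transcripts kept the 7 genes called higher than Con at 8 weeks and ended most calls in the lower direction. At 6 weeks 8 genes were then higher and 0 lower against Con (3.87% and 3.53% of all tested genes), and 14 higher and 0 lower against NCAC (5.76% and 3.66%). The genes higher than Con at 6 weeks were not all the same as with all livers. Nid1, Mmp14 and Ccn2 were no longer called (limma, adjusted p = 0.1, 0.0555 and 0.0619), and Col1a2, Tagln and Des were called instead. The lower call of Reln also ended (adjusted p = 0.102). At 8 weeks 9 were higher and 3 lower against Con, the latter Acta2, Reln and Tgfb1, beside 5.07% and 34.8% of all tested genes. Against NCAC 18 were higher and 0 lower, beside 5.72% and 28.4%. Of the 7 genes lower against Con in all livers at 8 weeks, 5 (Col5a1, Col6a2, Loxl1, Timp2 and Vim) were not called. Col4a2, Nid1, Fn1, Lum, Mmp14, Timp1 and Ccn2, the 7 higher ones, were all called again. At 8 weeks the CAC livers held little of the pancreas, with 5 of 12 exocrine markers at 0 in every liver and a sum of 4.03 to 14.9 TPM, against 18.2 to 6750 TPM in Con.

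**Figure D4:**
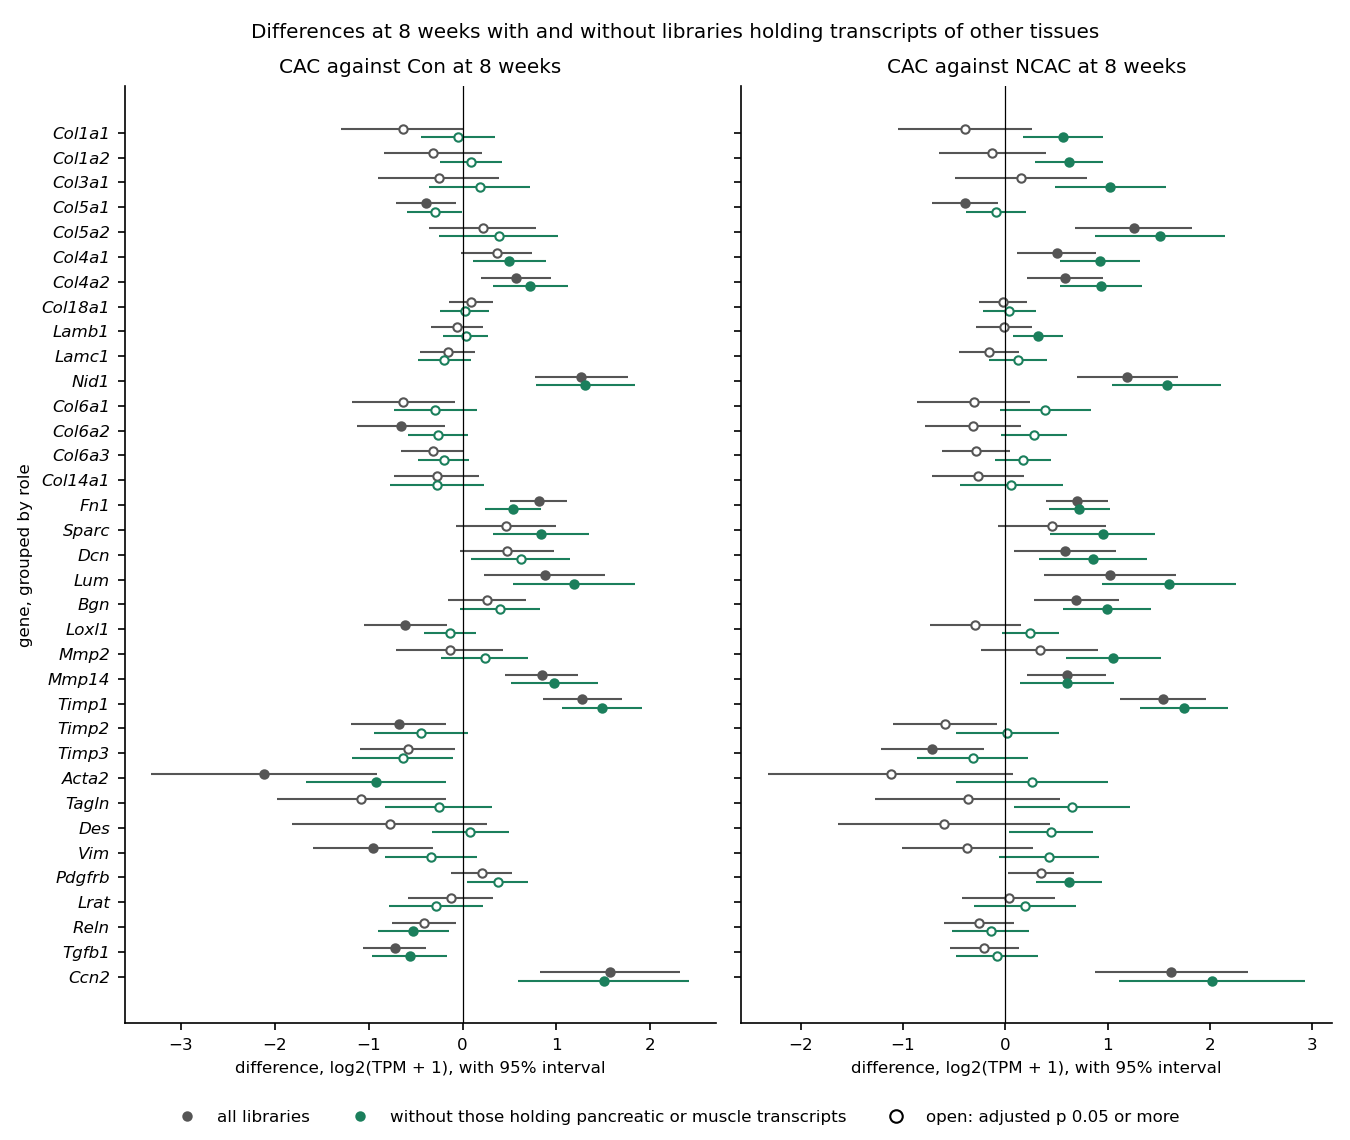
Difference in log2(TPM + 1) with 95% interval (horizontal axis) of the 35 tested genes (vertical axis) for CAC against Con and against NCAC at 8 weeks, grey with all livers and green without those holding pancreatic or muscle transcripts, filled at adjusted p under 0.05 and open otherwise. Acta2 moves from -2.11 to -0.92 against Con, while Timp1 and Nid1 stay above 1 in both panels.

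Other genes of these pathways, from lists that do not contain the 37, were called in both directions. Each count below is to be read beside the shares of all tested genes called higher and lower than Con, 5% and 10.3% at 6 weeks and 5.87% and 35.3% at 8 weeks, and a share near these is no result about a list. Of 20 tested genes of TGF-beta, PDGF and CTGF signalling, 2 were higher and 1 lower in CAC than Con at 6 weeks (median 0.00 over the 20) and 4 higher and 5 lower at 8 weeks (median -0.15). Ccn1 (listed as Cyr61), a relative of Ccn2 with shared regulators, was lower at 6 and 8 weeks, at -0.69 and -0.82 (limma, adjusted p = 0.0168 and 0.000464), while Ccn2 was higher. Eng (endoglin, a TGF-beta coreceptor of endothelium) was at 0.58 and Pdgfra at 0.46 at 6 weeks (adjusted p = 0.0178 and 0.0318).

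Collagen folding and processing had 3 of 15 tested genes higher and 0 lower at 6 weeks against Con and 2 higher and 2 lower at 8 weeks. Ppib, a prolyl isomerase of the endoplasmic reticulum, was at 0.59 at 6 weeks, and Adamts2, which trims procollagen, at 0.61 at 6 and 0.70 at 8 weeks (limma, adjusted p = 0.00169 at 8 weeks). Of 12 other proteases and inhibitors, 2 were higher and 1 lower at 6 weeks and 2 higher and 3 lower at 8 weeks. Ctsl, a lysosomal protease, was at 1.33 and 1.13, Plg (plasminogen) at 0.45 and 0.56 and Mmp15, a membrane-bound relative of Mmp14, at -0.94 and -1.52 (adjusted p = 7.63e-08 at 8 weeks).

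Of 18 other matrix proteins, 3 were higher and 1 lower at 6 weeks and 1 higher and 5 lower at 8 weeks, where 5.87% and 35.3% of all tested genes were called. Vtn, the hepatocyte plasma protein vitronectin, was at 0.73 at 6 and 0.57 at 8 weeks, Emilin1, an elastic fibre protein, at 0.95 at 6 weeks, and Ecm1 at -0.81 and -1.28 (limma, adjusted p = 2.02e-08 for Vtn and 0.03 for Ecm1 at 6 weeks). Nid2, the second nidogen, was at -0.74 at 8 weeks, opposite to Nid1. Of 16 integrins and matrix receptors, 1 was higher and 1 lower at 6 weeks and 2 higher and 4 lower at 8 weeks. Itgb3, the beta chain of the vitronectin receptor, was at 0.99 and 1.44 (adjusted p = 0.015 and 2.73e-05), and Itga8, a stellate cell integrin, at -0.60 and -0.75 (adjusted p = 0.00738 at 6 weeks).

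Markers of other cells also differed between the arms, not always at the same weeks as these genes, and their part was not tested. For 17 markers of quiescent stellate cells the sum was 138 to 262 TPM in CAC, 135 to 184 in Con and 81.1 to 146 in NCAC at 6 weeks, and 113 to 200 and 110 to 203 in CAC and Con at 8 weeks. Of 14 tested, 1 was higher and 0 lower than Con at 6 weeks (Cygb, a globin of stellate cells, at 1.49) and 2 higher and 6 lower at 8 weeks. The 15 sinusoidal endothelium markers summed to 188 to 313 TPM in CAC, 154 to 222 in Con and 79.9 to 168 in NCAC at 6 weeks. Of the 15, 11 were higher than NCAC, beside 6.55% of all tested genes, and 2 higher than Con, beside 5%. The 12 portal fibroblast markers summed to 97.7 to 179 TPM in CAC, 50.6 to 97.9 in Con and 45.8 to 74.2 in NCAC at 6 weeks. Their sums were already apart at 4 weeks, when 0 of the 35 genes were called, at 94.2 to 155 TPM in CAC, 42.8 to 85.0 in Con and 47.6 to 79.9 in NCAC. At 8 weeks they overlapped, at 54.5 to 219 TPM in CAC, 51.5 to 151 in Con and 44.6 to 185 in NCAC. No marker of these 3 lists was at 0 in every liver of those groups.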

How the data were processed

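RNA of 62 mouse livers was sequenced from stranded mRNA libraries on an Illumina NovaSeq instrument, per the labels' protocols. The authors deposited 1 table of TPM, each library summing to 1000000, made with build mm10 per the submitters' processing notes. Which aligner and quantifier were used is not given in the sources used here. Read depth is unknown, and no count model was fitted. Columns were matched to samples by name (0 unmatched).

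log2(TPM + 1) of 12160 genes (minimum 1 TPM, reached in 5 libraries or more) was modelled in limma 3.58.1 (R 4.3.3) by 12 group means and a variance trend. P-values were adjusted by Benjamini-Hochberg in each of 15 comparisons. Figures used Python 3.11.15 and matplotlib 3.10.9. The pipeline was tested on simulated data. Positions are from GENCODE M21. The 37 genes and 18 other lists were chosen with earlier results of these data known. All 37 are described by role, with values per library for called genes, and up to 4 genes of smallest p are named per other list. Ltbp4, of the signalling list, is not analysed here. A gene that the naming rule picks from that list is not reported here.

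Alternatives were another pseudocount (0.1), no filter or one on the mean (5 TPM), median-of-ratios and quantile scaling, removal of the 20 highest genes, robust moderation, separate fits of the compared groups, a replicate block and leaving out each library. After seeing the data, fits without livers holding pancreatic or muscle transcripts were added.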

Additional observations from a re-analysis of the deposited data

Results flagged for a closer look

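Among 22 genes called in any comparison, each of 6 groups at 6 and 8 weeks was searched for a liver far from the others by Dixon's criterion, and 14 of 132 groups (10.6%) held one. The criterion gives about 1 in 20 for independent values with a normal spread. It was applied here to TPM without logs, and the genes share the same livers, so the share cannot be set against that rate. CAC at 8 weeks, with 7 livers, held none.

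Of the 14, 11 lay in livers that held pancreatic or muscle transcripts, all of them the highest of their group. In Con replicate 2 of 8 weeks (1906 TPM of Ctrb1) these were Loxl1 at 5.28 TPM (others 0.598 to 1.74), Col6a2 at 5.05 (others 0.813 to 2.01) and Pdgfrb at 4.48 (others 2.14 to 2.77). In NCAC replicate 5 of 8 weeks (410 TPM of Acta1) they were Acta2 at 67.0 TPM (others 0.565 to 9), Lum at 27.5 (others 4.39 to 9.36) and Col5a2 at 2.31 (others 0.331 to 0.867). In Con replicate 5 of 6 weeks (486 TPM of Acta1) they were Acta2 at 23.2 TPM (others 1.22 to 2.15), Timp3 at 8.99 (others 4.75 to 5.69) and Loxl1 at 1.15 (others 0.384 to 0.570). In CAC replicate 1 of 6 weeks (146 TPM of Ctrb1) Sparc was at 98.3 TPM (others 52.9 to 60.8) and Col4a2 at 13.7 (others 8.23 to 9.78). The part of the other tissue in these values was not tested.

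The other 3 lay in livers below the thresholds set for those transcripts. Ccn2 was at 16.8 TPM in CAC replicate 2 of 6 weeks (others 9.62 to 11.2), Nid1 at 2.35 in NCAC replicate 5 of 6 weeks (others 3.68 to 4.15) and Timp1 at 0.106 in NCAC replicate 3 of 6 weeks (others 0.374 to 0.470).

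The difference between CAC and Con changed over the weeks for 6 genes by the linear trend in limma, in log2 per 2 weeks: 0.61 for Ccn2, 0.54 for Nid1, 0.41 for Timp1, 0.37 for Fn1, 0.29 for Mmp14 and 0.29 for Col4a2.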

How the results depend on the processing

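No call among the 35 genes reversed its direction under the alternatives tried or when any 1 liver was left out. Counts moved as follows. Between CAC and Con at 4 weeks 1 gene was called after median-of-ratios rescaling and 1 without the pancreatic livers, against 0. Fits on the compared groups only called 9 genes between CAC and Con at 8 weeks (14 in the full fit), 6 between CAC and NCAC at 8 weeks (13), and 3 each at 2 weeks between NCAC and Con and between CAC and NCAC (0). The trend of CAC minus Con had 10 called genes after quantile normalization, against 6. The call of Col5a2 between Con at 8 and 2 weeks ended, to 0, with a pseudocount of 0.1, quantile normalization, median-of-ratios rescaling, without the pancreatic and without the pancreatic or muscle livers, and in the fit on those groups only. Under the mean filter of 5 TPM Col5a2 was not tested. Leaving out 1 liver at a time gave 0 to 1 called genes between CAC and Con at 4 weeks, 5 to 9 at 6 weeks (5 without Con replicate 2) and 10 to 18 at 8 weeks. It gave 0 to 1 between NCAC and Con at 8 weeks (1 without NCAC replicate 5 or Con replicate 1), 0 to 1 between CAC and NCAC at 4 weeks (1 without CAC or NCAC replicate 2) and 0 to 1 between Con at 8 and 2 weeks. The causes were not tested.

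Of 55 calls, median-of-ratios rescaling and quantile normalization ended 9 each, the replicate block 5, fits on the compared groups only 13, and leaving out the pancreatic or muscle livers 14. Same-numbered livers deviated with correlations from -0.37 to 0.36, so the numbers were not taken to pair them. Between CAC and NCAC at 6 weeks, however, 4 of 5 livers correlated best with the liver of their own number, at -0.04 to 0.20. In the other pairs of arms and weeks this held for 0 to 2 of 5. With the replicate block 9 and 13 genes were called between CAC and Con at 6 and 8 weeks, 14 and 11 between CAC and NCAC, and 5 in the trend. Depth is unknown, so the precision of genes near 1 TPM, such as Timp1 and Loxl1, rests on the spread between livers alone.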

Other observations

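Markers of cells outside the matrix compartment were also counted between CAC and Con. Of all tested genes 5.87% were called higher and 35.3% lower in CAC at 8 weeks, and 5% and 10.3% at 6 weeks. At 8 weeks 7 of 7 tested B and plasma cell markers were lower in CAC, with summed levels of 35.0 to 149 TPM in CAC and 141 to 2180 in Con, and 2 of 7 were lower at 6 weeks. Of 7 cholangiocyte markers 2 were higher and 5 lower at 8 weeks, and 2 higher and 1 lower at 6 weeks. Their summed level was nonetheless 58.8 to 71.0 TPM in CAC and 30.7 to 47.6 in Con at 6 weeks. At 8 weeks it was 53.3 to 79.5 and 42.1 to 82.0 TPM. Of 10 hepatocyte markers 2 were higher and 0 lower at each of those weeks. Of 3 tested melanoma markers 1 was higher at 8 weeks, with sums of 12 to 24.7 TPM in CAC and 8.44 to 14.7 in Con, and 3 of 7 melanoma markers were at 0 in every CAC liver of 8 weeks.

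Other tissues were also measured. All 12 exocrine pancreas markers were lower in CAC than Con at 8 weeks, beside 35.3% of all tested genes, and 0 of 12 differed from NCAC by the test. Of 7 skeletal muscle, 7 fat and 4 mesothelium markers 0 were called between CAC and Con at 6 or 8 weeks. Against NCAC at 8 weeks 6 of 7 fat markers were lower in CAC, where NCAC sums ran from 11.5 to 1222 TPM and CAC sums from 7.46 to 133 TPM. Of all tested genes 5.09% were called higher and 43.1% lower in CAC than NCAC at 8 weeks.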
